A study of Sus scrofa with 30 samples.

Results

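The miR-148/152 family was followed in 30 small RNA libraries of porcine endometrium, 1 library per animal. Its members were the sequences of the study's list of 873 annotated miRNAs and isomiRs whose name has the root mir-148a, mir-148b or mir-152, and 26 of the 873 met this rule. They were 12 sequences of mir-148a, 9 of mir-148b and 5 of mir-152. The animals were Hampshire x Duroc crossbred gilts aged 7 to 8 months that came from a single herd. Endometrium of pregnant gilts was taken on day 12 (PD12, n = 5), day 16 (PD16, n = 5) and day 20 (PD20, n = 6) of pregnancy, and that of cyclic gilts on day 12 (CD12, n = 4), day 16 (CD16, n = 5) and day 20 (CD20, n = 5) of the estrous cycle. According to the protocol the conceptuses were flushed out up to day 16, while on day 20 of pregnancy the embryos and trophoblast were dissected away and the tissue came from implantation sites, so PD20 differs from all other groups in sampling site, and from CD20 in status and sampling site on the same day. Each library held between 2029729 and 6402731 deposited reads, with a median of 3111079. The tissue is bulk endometrium, in which fewer cells of a type and less of an RNA per cell cannot be told apart.

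A miRNA is cut from a hairpin precursor and guides a silencing complex to mRNAs that pair with its seed, which is bases 2 to 8 counted from the 5' end. miR-148a, miR-148b and miR-152 come from separate precursors and share 1 seed, so they are expected to recognise the same core of target sites. The family is best known for repressing DNMT1, the maintenance DNA methyltransferase that copies methylation to the new DNA strand. In the RefSeq gene list of assembly Sscrofa11.1 the gene MIR148B lies within COPZ1 and MIR152 within COPZ2, which encode subunits of the coatomer coat of transport vesicles, and no gene encloses MIR148A. No mRNA was measured in these libraries, so target transcripts cannot be compared here.

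The 3 mature sequences of the 3p arm, which is the abundant arm of each precursor, are shown first because the whole family rests on them. Capitals mark the seed, and T stands for U of the RNA.
miR-148a-3p: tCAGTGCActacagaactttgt
miR-148b-3p: tCAGTGCAtcacagaactttgt
miR-152: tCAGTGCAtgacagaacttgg
Counted from 1 at the 5' end, miR-148a-3p differs from miR-148b-3p by C9T and T10C, and from miR-152 by C9T, T10G and T20G. miR-148b-3p differs from miR-152 by C10G and T20G. The seed CAGTGCA was carried by 16 annotated sequences, and all 16 were members of the family. The other members were isomiRs with a shortened 5' end, which moves the seed, and the passenger 5p arms. The following 3 isomiRs of miR-148b-3p are printed because the differences nearest to the threshold concerned them or because they change the seed. A label such as 3'-1 gives the number of bases lost at that end.
miR-148b-3p 3'-1: tCAGTGCAtcacagaactttg
miR-148b-3p 5'-2: aGTGCATCacagaactttgt
miR-148b-3p 5'-2 3'-1: aGTGCATCacagaactttg
The 5p arms of both miR-148 precursors shared the seed AAGTTCT.
miR-148a-5p: aAAGTTCTgagacactccgact
miR-148b-5p: gAAGTTCTgttatacactcaggc

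Levels are given as normalised reads, that is reads of a sequence per 1000000 annotated reads of its library (CPM) after TMM scaling of the libraries. A read covers the whole molecule, so levels of different members were compared without a correction for length, and differences in ligation between sequences were not tested. Canonical miR-148a-3p was the most abundant member, with a mean of 39040 CPM over 30 libraries and rank 8 among the 873 sequences. miR-148b-3p followed with 11230 CPM and rank 15, and miR-152 with 786 CPM and rank 74. The 26 members together took 5.27% ± 2.03 (SD, n = 30) of annotated reads. Canonical 3p forms were sequenced with 13172 to 229830 reads a library for miR-148a-3p, 1878 to 67315 for miR-148b-3p and 991 to 4157 for miR-152. The 5p arms were rare, with 1 to 72 reads a library for each listed sequence. On average 2525 reads of miR-148a-3p forms were counted per read of the 5p arm, and 1583 for miR-148b. A total of 4 members, miR-148b-3p 3'+2, miR-148b-3p 3'-2, miR-148b-3p 5'-2 3'-1 and miR-152 3'+1, were at 0 in 1 library each, and the other 22 were found in all 30. At least 10 reads in 4 libraries of a group (3 in CD12), the minimum of the study's list, were met in all 6 groups by 17 of the 26 members, and in 1 group by miR-148a-3p 5'-1 (PD16) and miR-148b-5p (CD20). Counted here, miR-148a-5p without its last 2 bases met it in 0 groups.

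Before the comparisons, libraries that stood apart should be known. In PD20 replicate 1 the markers of stroma and smooth muscle, led by miR-143-3p, summed to 636819 CPM against 64940 to 210181 in the other 29 libraries, and those of striated muscle, led by miR-1, to 40186 CPM against 1111 to 16765. CD20 replicates 1 and 2 held the lowest and the next lowest level of miR-148b-3p of all 30 libraries. PD20 replicate 3 and CD16 replicate 3 differed from the remaining 28 libraries in the last base of the reads, as described further on. All 7 epithelial roots of the marker list (the mir-200 group, mir-141, mir-429, mir-205 and mir-203) were found, with a sum of 4469 to 16846 CPM a library and miR-200c as the most abundant.

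A marker of embryonic cells set PD20 apart from the other groups. miR-302, which is known from pluripotent and early embryonic cells, is in the list of 873 sequences without a miRNA name and was matched by the sequence of its RT-PCR assay, a look-up made after seeing the data. It had 7, 4, 11, 117, 48 and 121 reads in PD20, corresponding to 2.44, 2.37, 4.57, 39.3, 17.1 and 41.2 CPM. In the 24 other libraries it had 2 reads in CD20 replicate 1, 1 read in CD20 replicate 5 and 0 reads in the remaining 22. It met the read minimum of the list in PD20 only, so its levels are given as a description without a test. The names of 17 of the 873 sequences hold no miRNA root, so the embryonic list of 5 roots could not be read in full by name. The part of embryonic RNA in any PD20 level of the family was not tested.

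Canonical miR-148a-3p had similar central levels in 5 of the 6 groups and spread widest in CD20. The libraries of PD12 held 36671, 42026, 39222, 24762 and 43936 CPM. Those of PD16 held 24362, 62242, 33618, 39953 and 58370 CPM. PD20 ranged from 15442 through a median of 44718 to 55360 CPM. In CD12 the values were 24334, 58893, 25477 and 67610 CPM, and in CD16 35596, 55663, 42193, 32130 and 21474 CPM. CD20 gave 4988, 15282, 20763, 42420 and 71769 CPM, so this group contained both the lowest and the highest library of the study. All groups overlapped. By group median the order was PD20, CD12, PD16, PD12, CD16 and CD20, and neighbours in that order overlapped in their ranges.

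miR-148b-3p varied more between animals than its sister. PD12 held 11116, 9916, 16559, 5069 and 2352 CPM. PD16 held 4074, 16516, 16619, 23919 and 24664 CPM, and PD20 ranged from 4658 through a median of 14493 to 21619 CPM. CD12 was low throughout, with 3601, 2883, 3568 and 6196 CPM. CD16 gave 18110, 12385, 4073, 7240 and 18320 CPM. CD20 gave 711, 782, 5574, 16393 and 18965 CPM, thus 2 of its 5 libraries lay below every other library. The coefficient of variation over 30 libraries was 65.6% for miR-148b-3p, 42.3% for miR-148a-3p and 33.2% for miR-152. Of the 548 annotated sequences whose mean reached 10 CPM, 73.9% varied less than miR-148b-3p, 27.4% less than miR-148a-3p and 7.85% less than miR-152.

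miR-152 was the steadiest of the canonical 3p members. It lay between 567 and 874 CPM in PD12, between 583 and 1107 CPM in PD16, between 412 and 885 CPM in PD20, between 455 and 944 CPM in CD12 and between 465 and 950 CPM in CD16. The 5 libraries of CD20 held 1574, 1275, 1215, 768 and 747 CPM. CD20 therefore included the 3 highest libraries for this sequence, and they were the same 3 in which miR-148a-3p was lowest within the group. Markers of leukocytes, led by miR-146a-5p, summed to 565, 391, 504, 407 and 333 CPM in the same 5 libraries, against 69.4 to 497 CPM in the other groups, with 4 of the 5 roots found, mir-223 not analysed here and 6 of 15 sequences at 0 in some library. Markers of endothelium, led by mir-126, summed to between 4232 and 4924 CPM in CD20 and between 1772 and 4778 CPM elsewhere. The part of these cells in the level of miR-152 was not tested.

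The remaining members were isomiRs at lower levels. Of the miR-148a-3p forms, 3'-1 had a mean of 749.6 CPM and 5'-2 of 646.2 CPM, followed by 3'+1 with 145.7, 3'-2 with 91.2, 3'+2 with 17.5, 3'-3 with 16.4, 5'-2 3'-1 with 12.6, 3'-4 with 6.45 and 5'-1 with 4.13 CPM. Of the miR-148b-3p forms, 3'-1 had 405.4 CPM, 5'-2 had 204.7 and 3'+1 had 147.1, while 3'-2, 5'-2 3'-1 and 3'+2 had 7.96, 7.5 and 7.38 CPM. The miR-152 forms 3'-1, 5'-2, 3'-2 and 3'+1 had 19.1, 10.02, 8.67 and 6.78 CPM. The 5p arm of mir-148a had 13.6 CPM in its canonical form and 3.36 CPM without its last 2 bases, and that of mir-148b had 4.23 CPM and, without its last base, 4.62 CPM. The most variable member was miR-148b-3p 5'-2 3'-1, with a coefficient of variation of 102.4%, and the least variable was miR-148a-3p 3'-3, with 28.99%.

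**Figure D1:**
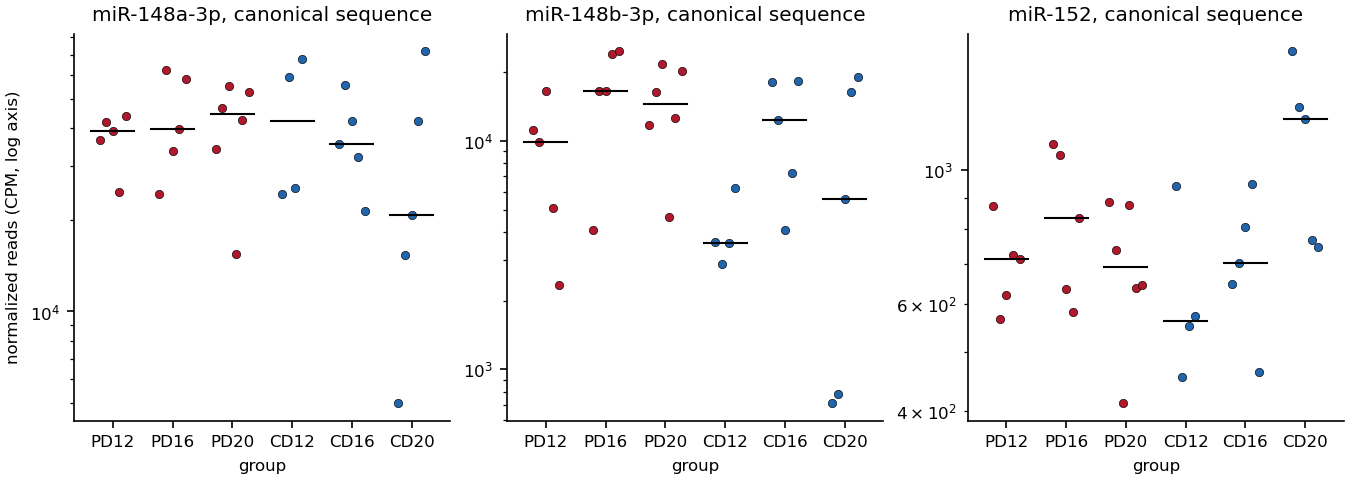
Normalised reads (CPM, log axis) of canonical miR-148a-3p, miR-148b-3p and miR-152 in each library by group, with pregnant animals in red, cyclic animals in blue and the group median as a bar. In CD20 the libraries spread from 4988 to 71769 CPM for miR-148a-3p and from 711 to 18965 CPM for miR-148b-3p.

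The first comparison asked whether the family changes with the day of pregnancy, and none of the 26 members passed the test. One quasi-likelihood F-test in edgeR covered both later days relative to day 12. To be called, a sequence needed a Benjamini-Hochberg adjusted p below 0.05 among all 873 sequences and a log2 fold change (log2FC) beyond 1 in either direction. For PD16 vs PD12 0 of 26 members were called, against 0.229% of all sequences, and for PD20 vs PD12 0 of 26 against 0.802%. At an unadjusted p under 0.05 in the joint test there were 3 of 26 members, all isomiRs of miR-148b-3p, against 18.7% of all sequences, and 2 of the 3 (3'+2 and 5'-2 3'-1) did not meet the read minimum of the list in PD12. The likelihood ratio test of edgeR and DESeq2 each called 1 member for PD16 vs PD12 and 2 for PD20 vs PD12, where the former called 2.75% and 5.27% of all sequences and the latter 2.89% and 5.32%. These calls too take their p from a joint test of both days. The 1 member for PD16 vs PD12, miR-148b-3p 5'-2 3'-1, had an adjusted p of 0.515 when the F-test covered day 16 alone. The median log2FC of the members was 0.25 for PD16 vs PD12, beside 0.05 for all sequences, and 0.21 for PD20 vs PD12, beside -0.01. Both comparisons share the PD12 libraries.

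The isomiR of miR-148b-3p without its last base had the largest difference of the abundant members in PD20. miR-148b-3p 3'-1 held 291, 318, 214, 201 and 67.6 CPM in PD12 and 355, 467, 434, 222 and 536 CPM in PD16. In PD20 the 6 libraries held 402, 1067, 2098, 534, 643 and 559 CPM. Every library of PD20 was above every library of PD12, and PD16 lay between with overlap. The log2FC of PD20 vs PD12 was 2.02 (SE 0.46) with an F-test adjusted p of 0.052, just outside the threshold, and by the likelihood ratio test and DESeq2 the adjusted p was 0.0034 and 0.0037. PD20 replicate 3, with 2098 CPM, was the highest library, and without it the log2FC was 1.54 (adjusted p = 0.122). Groups that did not overlap in PD20 vs PD12 were found for 2 of 26 members and for 3.32% of all sequences.

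The second of these members was miR-148b-3p 5'-2 3'-1, the short form with both ends trimmed and the seed GTGCATC. It is rare, with 538 reads in all libraries together, and it met the read minimum of the study's list in PD16, PD20 and CD16 but not in PD12. PD12 held 5.94, 5.84, 1.85, 4.07 and 0.962 CPM and PD20 held 6.28, 16, 41.5, 15.1, 11.4 and 7.49 CPM. Its log2FC was 2.11 (SE 0.55), with an adjusted p of 0.083 by the F-test of edgeR, and without PD20 replicate 3 it was 1.56. Since it met the minimum in the higher group only, its differences from PD12, its lack of overlap and its calls are a description. It overlaps in sequence with the 3'-1 form, as both end at the same base. The canonical miR-148b-3p itself had a log2FC of 0.94 (SE 0.51) for PD16 vs PD12 and 0.69 (SE 0.49) for PD20 vs PD12, with an F-test adjusted p of 0.447. For canonical miR-148a-3p the values were 0.28 (SE 0.34) and 0.16 (SE 0.33), and for miR-152 0.34 (SE 0.30) and 0.02 (SE 0.28), the last of which took the other sign under 6 of the alternative settings. With 1 library left out, the values of miR-148b-3p were 0.69 to 1.31 and 0.44 to 1.06. Those of miR-148a-3p were 0.10 to 0.41 and 0.03 to 0.31.

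**Figure D2:**
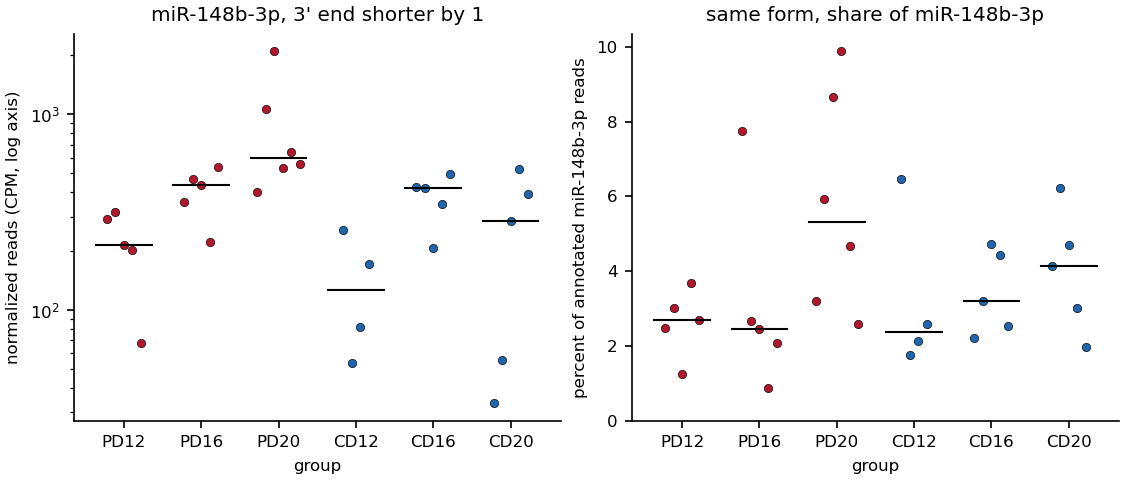
Level of miR-148b-3p 3'-1 (CPM, log axis, left) and its share of annotated miR-148b-3p reads (percent, right) in each library by group, with the group median as a bar. The 6 libraries of PD20 lie between 402 and 2098 CPM and the 5 of PD12 between 67.6 and 318 CPM, while the shares overlap.

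The mean share of this isomiR among miR-148b-3p reads was also highest in PD20. The 3'-1 form made up 2.63% ± 0.90 of annotated miR-148b-3p reads in PD12, 3.17% ± 2.66 in PD16 and 5.83% ± 2.94 in PD20 (SD, n = 5, 5 and 6). The PD20 shares were 3.19%, 5.94%, 8.66%, 9.90%, 4.69% and 2.59%, and the PD12 shares 2.49%, 3.01%, 1.24%, 3.69% and 2.71%, so the groups overlapped in share although they did not in level. For miR-148a-3p the same end gave 1.67% ± 0.53 in PD12 and 2.26% ± 1.26 in PD20. Its 2 highest shares of all libraries were 9.47% and 5.63%, in CD20 replicates 1 and 2. No test of shares was made.

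Between days 16 and 20 of pregnancy 0 of 26 members were called by the F-test, against 0.573% of all sequences, with 2 of 26 at an unadjusted p under 0.05 (14.2% of all) and 0 by the likelihood ratio test (2.41% of all). The 2 were miR-148b-3p 3'-1 and miR-148a-3p 5'-1, and the latter met the read minimum of the study's list in PD16 only, the group in which it is higher, so its value (log2FC -0.93, SE 0.44) is a description. miR-148b-3p 3'-1 again had the largest positive value, with a log2FC of 1.09 (SE 0.44, F-test adjusted p = 0.261), and 0.62 without PD20 replicate 3. For canonical miR-148a-3p, miR-148b-3p and miR-152 the log2FC was -0.12 (SE 0.33), -0.25 (SE 0.48) and -0.32 (SE 0.28). Of 41 stroma and smooth muscle markers 1 was called higher and 20 were at an unadjusted p under 0.05 (median log2FC 1.07). Of 8 striated muscle markers 0 were called and 5 were at an unadjusted p under 0.05 (median 2.21). Of the epithelial, endothelial, erythrocyte and leukocyte markers 0 were called. The part of these cells was not tested.

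The second comparison followed the days of the estrous cycle. Again 0 of 26 members were called for CD16 vs CD12, CD20 vs CD12 and CD20 vs CD16, where 0.115%, 0.458% and 0.458% of all sequences were called by the F-test of edgeR. At an unadjusted p under 0.05 there were 2, 2 and 1 members, against 23.9%, 23.9% and 21.2% of all sequences. These were miR-148a-3p 3'+2 and miR-148b-3p 3'-2 in the joint test, of which the latter did not meet the read minimum of the list in CD12, and miR-148a-3p 3'+2 for CD20 vs CD16. The likelihood ratio test called 0 of 26 in each, against 5.27%, 5.73% and 6.41%. Canonical miR-148b-3p had a log2FC of 1.68 (SE 0.76) for CD16 vs CD12 and 1.04 (SE 0.74) for CD20 vs CD12, with a joint adjusted p of 0.304. Its level overlapped between groups, as CD16 replicate 3 with 4073 CPM lay within the range of CD12. miR-148a-3p had -0.14 (SE 0.56) and -0.52 (SE 0.56). Without CD20 replicate 5 the values for CD20 vs CD12 were 0.53 for miR-148b-3p and -1.08 for miR-148a-3p. miR-152 had 0.25 (SE 0.38) for CD16 vs CD12 and 0.81 (SE 0.38) for CD20 vs CD12, with a joint adjusted p of 0.291. The extended form miR-148a-3p 3'+2 had a log2FC of -1.32 (SE 0.49) for CD20 vs CD12 and an adjusted p of 0.165, thus outside the threshold. The median log2FC of the members was 0.06, 0.09 and -0.28 in the 3 comparisons, beside 0.03, 0.09 and -0.03 for all sequences.

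The third comparison set pregnant against cyclic animals on each day. On day 12 and on day 16 no sequence of the whole table was called by the F-test (0% of 873), so 0 of 26 members says nothing particular about the family, and at an unadjusted p under 0.05 there were 2 members on day 12 and 0 on day 16, against 6.07% and 10.9% of all sequences. The likelihood ratio test called 0 of 26 on both days, against 0.115% and 0.573%. The 2 on day 12 were canonical miR-148b-3p, with a log2FC of 1.16 (SE 0.49, adjusted p = 0.678), and miR-148b-3p 5'-2, with 1.14 (SE 0.47, adjusted p = 0.678). Their PD12 libraries spread around the narrow and low CD12 group and overlapped with it. On day 16 the canonical members had a log2FC of 0.19 (SE 0.39) for miR-148a-3p, 0.44 (SE 0.50) for miR-148b-3p and 0.22 (SE 0.34) for miR-152. With 1 library left out they lay between 0.04 and 0.41, 0.17 and 0.76, and 0.09 and 0.35.

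On day 20, when the conceptus is attached, 0 of 26 members were called by the F-test, against 1.49% of all sequences. The count at an unadjusted p under 0.05 was 4 of 26 (28.5% of all sequences), and the likelihood ratio test and DESeq2 each called 2, where the former called 14.2% of all sequences and the latter 15.2%. The 4 were miR-148b-3p 3'-1, miR-148b-5p, miR-148b-3p 5'-2 3'-1 (log2FC 1.57, SE 0.66) and miR-152 3'-1 (log2FC -0.73, SE 0.34). miR-148b-3p 3'-1 had a log2FC of 1.80 (SE 0.64, F-test adjusted p = 0.0884), but the groups overlapped, since CD20 held 33.3, 55.3, 284, 526 and 392 CPM. Without PD20 replicate 3 its log2FC was 1.33, and without CD20 replicate 4 it was 2.23 with an F-test adjusted p of 0.0469, a call, when 11.9% of all sequences were called. miR-148b-3p 5'-2 3'-1 was then called too (log2FC 2.25, F-test adjusted p = 0.0451). It met the read minimum in PD20 but not in CD20, so its values are a description. The passenger miR-148b-5p had the opposite sign, with a log2FC of -1.34 (SE 0.49, F-test adjusted p = 0.0967). It held 0.349, 4.14, 2.08, 1.68, 2.49 and 4.09 CPM in PD20 and 4.17, 4.58, 4.65, 10.6 and 7.62 CPM in CD20. It was the 1 member of 26 whose groups did not overlap, against 4.81% of all sequences, and it rests on 1 to 28 reads a library. It met the read minimum of the study's list in CD20 only, the group in which it is high, so its difference and its calls by the likelihood ratio test and DESeq2 are a description. Outside PD20 vs PD12 and PD20 vs CD20 the count of such members was 0 of 26. The share of all sequences was then 1.83% for PD16 vs PD12, 1.72% for PD20 vs PD16, 5.5% for CD16 vs CD12, 4.47% for CD20 vs CD12, 4.93% for CD20 vs CD16, 2.18% for PD12 vs CD12 and 1.72% for PD16 vs CD16. Canonical miR-148a-3p, miR-148b-3p and miR-152 had a log2FC of 0.44 (SE 0.53), 0.81 (SE 0.70) and -0.66 (SE 0.33), with adjusted p of 0.598, 0.457 and 0.197. Single libraries moved the first 2 of these, which were 0.17 and 0.51 without CD20 replicate 1 and 1.00 and 1.34 without CD20 replicate 5.

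The marker lists of other cells had the following values for PD20 vs PD12 and PD20 vs CD20, where the F-test called 0.802% and 1.49% of all sequences and 18.7% and 28.5% were at an unadjusted p under 0.05. Those of striated muscle (8 sequences, 3 of 5 roots found, 1 sequence at 0 in some library) summed to 1416 to 40186 CPM in PD20 with a median of 3853, against medians of 2075 in PD12 and 2054 in CD20. Their median log2FC was 1.64 and 1.77, with 0 of 8 called and 5 of 8 at an unadjusted p under 0.05 in each comparison. Those of stroma and smooth muscle (41 sequences, 4 of 4 roots found, 3 sequences at 0 in some library) summed to 77428 to 636819 CPM in PD20, 78372 to 134720 CPM in PD12 and 79264 to 129550 CPM in CD20. Their median log2FC was 0.62 and 0.68, with 0 of 41 called in each and 11 and 9 at an unadjusted p under 0.05. Of the 36 epithelial sequences, of which 4 were at 0 in some library, 0 were called for PD20 vs PD12 and 3 were lower in PD20 than in CD20 by the F-test, with 4 and 11 at an unadjusted p under 0.05 and a median log2FC of -0.46 and -0.29. Erythrocyte markers (16 sequences, 3 of 3 roots found, 3 sequences at 0 in some library), led by mir-451, summed to 822 to 3977 CPM in PD20, 750 to 1722 CPM in PD12 and 326 to 1783 CPM in CD20. Their median log2FC was -0.07 and 0.52, with 0 of 16 called in each and 1 and 6 at an unadjusted p under 0.05. The 15 endothelial sequences had a median log2FC of 0.07 and -0.44, with 0 called in each and 3 and 4 at an unadjusted p under 0.05. For the 15 leukocyte sequences the median was 0.79 and -0.39, with 3 and 6 at an unadjusted p under 0.05, and 1 was lower in PD20 than in CD20 by the F-test. Without PD20 replicate 1, which held the highest sums of both muscle lists, the log2FC of miR-148b-3p 3'-1 was 2.19 for PD20 vs PD12 (F-test adjusted p = 0.0427, a call, when 0.802% of all sequences were called) and 2.02 for PD20 vs CD20 (adjusted p = 0.101). The part of these cells in the level of miR-148b-3p 3'-1 was not tested.

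**Figure D3:**
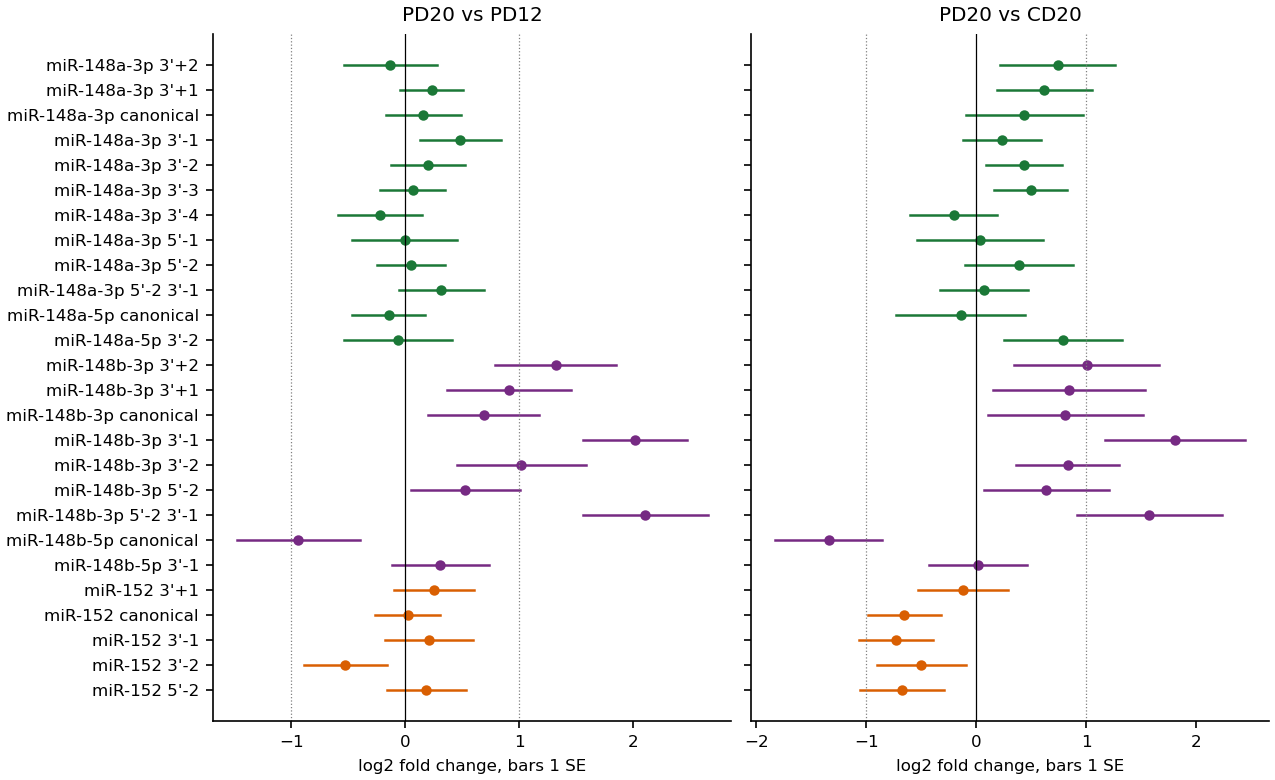
Log2 fold change of each of the 26 members for PD20 vs PD12 (left) and PD20 vs CD20 (right), as a point with bars of 1 SE, with miR-148a in green, miR-148b in purple and miR-152 in orange and dotted lines at -1 and 1. The forms of miR-148b-3p lie to the right of 0 in both panels, with the 3'-1 form at 2.02 and 1.80, and canonical miR-148b-5p lies to the left.

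Whether the difference between pregnancy and cycle changes with the day was tested as an interaction in 1 fit of all groups. None of the 26 members was called, where 0%, 0.115% and 2.41% of all sequences were called for day 16 vs 12, day 20 vs 12 and day 20 vs 16 by the F-test. At an unadjusted p under 0.05 there were 1, 2 and 4 members, against 8.13%, 16.4% and 19.1% of all sequences. For day 16 vs 12 it was miR-148b-3p 3'-2 (log2FC -1.99, SE 0.95), and for day 20 vs 12 the members included miR-152 3'-2 (log2FC -1.46, SE 0.68). Neither met the read minimum of the list in CD12, so both values are a description. The last 2 interactions both included miR-148b-5p, with -1.72 (SE 0.78) and -1.82 (SE 0.75). It met the read minimum of the list in CD20 only and is a description here as well. For day 20 vs 16 the others were miR-148a-3p 3'+2, miR-148b-3p 3'-1 and canonical miR-152. The likelihood ratio test called 0 of 26 in each, against 0%, 1.83% and 5.38%. Among the canonical 3p members miR-152 had the largest value, a log2FC of -0.91 (SE 0.41, adjusted p = 0.206) for day 20 vs 16. When all deposited reads with the core of miR-152 were summed, as described further on, this value was -0.17 (SE 0.35, adjusted p = 0.812). In the same interaction the F-test called 3 of 41 stroma and smooth muscle markers, 2 of 8 of striated muscle and 1 of 16 of erythrocytes. Of the epithelial, endothelial and leukocyte markers 0 were called. The 15 leukocyte sequences had a median log2FC of -1.20, with 6 at an unadjusted p under 0.05. The part of these cells was not tested.

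Reads were also summed by seed, since sequences with 1 seed share predicted target sites. Sequences with CAGTGCA held 98.3% ± 0.21 (SD, n = 30) of the family's 3p reads. Their sum was 46703 ± 7781 CPM (SD) on day 12, 61047 ± 19768 on day 16 and 58931 ± 19257 on day 20 of pregnancy, and 52426 ± 22714, 54059 ± 12396 and 38081 ± 29655 CPM on the same days of the cycle. These seed sums are on another scale than the member levels given above. They do not equal the total of those levels and should not be compared with them. The log2FC of this sum lay between -0.36 for CD20 vs CD16 and 0.64 for PD20 vs CD20 over the 9 comparisons of groups. Single libraries of CD20 decided these values, as the former was -0.85 without CD20 replicate 5 and -0.10 without CD20 replicate 1, and the latter 1.12 and 0.23. None of the 6 seeds of the family was called in the 12 comparisons, interactions included, by the F-test, where of the 258 annotated seeds the test called 0% for PD16 vs PD12, 0.388% for PD20 vs PD12, 1.16% for PD20 vs PD16, 1.55% for CD16 vs CD12, 1.94% for CD20 vs CD12, 4.65% for CD20 vs CD16, 0% on days 12 and 16 and 9.69% on day 20 for pregnant vs cyclic animals, and 0%, 1.55% and 2.71% for the interactions.

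The balance between miR-148b-3p and miR-148a-3p was also uneven across animals. Per 100 reads of canonical miR-148a-3p there were 34.4 ± 3.99 reads of miR-148b-3p in PD20, where the 6 animals lay between 29.6 and 39.1, and 10.7 ± 4.61 in CD12, where the 4 lay between 4.90 and 14.8. The values were 24.4 ± 13.5 in PD12, 39.0 ± 17.4 in PD16, 38.1 ± 30.4 in CD16 and 22.3 ± 12.9 in CD20 (SD). Neither PD20 nor PD16 overlapped with CD12, but both differ from CD12 in day and status. CD16 covered nearly the whole range, from 9.65 to 85.3.

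Shortening of the 5' end changes the seed, and the family had a small share of such reads. The forms that start at base 3, with or without the last base, made up 1.65% ± 0.25 of annotated miR-148a-3p reads, 1.97% ± 0.69 of miR-148b-3p and 1.19% ± 0.28 of miR-152 (SD, n = 30). Their seed is GTGCACT in miR-148a-3p, GTGCATC in miR-148b-3p and GTGCATG in miR-152, so the 3 miRNAs no longer share it, because the bases in which they differ have moved into the seed. Among 107 other miRNAs with a canonical and at least 1 further listed form, 9 had a listed form that starts at base 3, and its share was higher than that of miR-148b-3p in 3 of them and higher than that of miR-148a-3p or miR-152 in 4. Over 30 libraries the level of the 5'-2 form followed the canonical one, with Pearson r of 0.97 for miR-148a-3p, 0.97 for miR-148b-3p and 0.84 for miR-152 on log2(CPM + 1), where both values share library and scaling. The rarer 5'-2 3'-1 form had r = -0.11 for miR-148a-3p and 0.69 for miR-148b-3p. The 3'-1 form of miR-148a-3p followed its canonical sequence far less, with r = 0.27. In CD20 replicates 1 and 2 the share of miR-148b-3p reads that start at base 3 was 4.72% and 3.97%, against 1.43% to 2.23% in the other 28 libraries.

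Within the annotated list the 3p arms looked uniform at their ends: the canonical sequence held 95.3% of listed miR-148a-3p reads, 92.8% of miR-148b-3p and 94.5% of miR-152, where the median of the 107 other miRNAs was 53.2% and 0, 1 and 0 of them were higher. Many reads of the family, however, lie outside the list. Reads that begin like a member (bases 1 to 18, or 3 to 20, of a canonical sequence) but are not listed added 18.3% of all reads of miR-148a-3p, 29.4% of miR-148b-3p and 73.9% of miR-152 (means of 30 libraries). Their most frequent forms carry the full seed. Capitals mark the seed and the base at the 3' end that is added or changed.
miR-148a-3p ending in C: tCAGTGCActacagaactttgC
miR-148b-3p ending in C: tCAGTGCAtcacagaactttgC
miR-148a-3p with T added: tCAGTGCActacagaactttgtT
miR-148b-3p with T added: tCAGTGCAtcacagaactttgtT
miR-152 with T added: tCAGTGCAtgacagaacttggT
miR-152 with A added: tCAGTGCAtgacagaacttggA

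miR-152 was found mostly with an added base. The form with T had 78133 reads and that with A 47169, compared with 59106 for the canonical sequence. The T form amounted to 147% ± 56.6 of canonical reads over 30 libraries, and it was lowest in CD20 replicates 1 and 2, with 24.8% and 42.1%. In the 3 other CD20 libraries it amounted to 91.5%, 149% and 222%, while the groups of pregnancy lay between 87.7% and 254%. Added T was also common on miR-148b-3p, with 17.6% ± 4.40 of canonical reads, and less so on miR-148a-3p, with 3.34% ± 0.63. The form of miR-148a-3p with A added reached 3.06% and 1.76% of canonical reads in CD20 replicates 1 and 2, against 0.183% to 0.916% in the other 28 libraries.

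Counting all deposited reads with a common core changed the picture of miR-152 and not that of the others. For each miRNA all sequences that hold bases 4 to 17 of its canonical form were summed, a count chosen after seeing the data. On this count CD20 held 3094, 2954, 3443, 3383 and 4398 CPM of miR-152, within the range of 2108 to 4508 CPM of the other groups. The log2FC of PD20 vs CD20 was -0.06 (SE 0.29, F-test adjusted p = 0.904), against -0.66 for the canonical sequence, and that of CD20 vs CD12 was 0.36 (SE 0.34), against 0.81. For miR-148a-3p and miR-148b-3p the log2FC of PD20 vs CD20 was 0.43 (SE 0.52) and 0.85 (SE 0.68), close to the canonical values. None of the 3 summed miRNAs was called in any of the 12 comparisons, interactions included, by the F-test, where between 0% of the 854 features (PD12 vs CD12, PD16 vs CD16 and the interaction of day 16 vs 12) and 2.69% (PD20 vs CD20) were called.

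**Figure D4:**
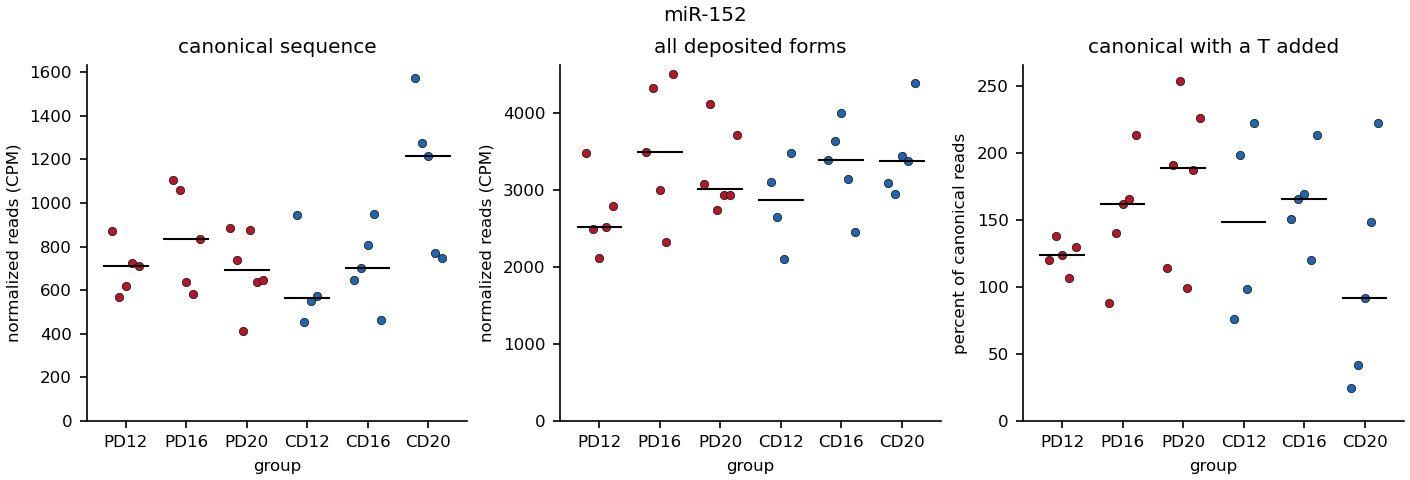
miR-152 in each library by group: canonical sequence (CPM, left), all deposited sequences with bases 4 to 17 (CPM, middle) and the form with T added (percent of canonical reads, right), with pregnant animals in red, cyclic animals in blue and the group median as a bar. CD20 holds the 3 highest libraries of the canonical sequence, from 1215 to 1574 CPM, but lies within the range of the other groups when all forms are summed.

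The relation between miR-148a-3p and miR-152 also depended on this choice. Over 30 libraries, Pearson r on log2(CPM + 1) between canonical miR-148a-3p and miR-148b-3p was 0.66 (Spearman rho 0.45), and 0.38 without the 2 libraries farthest from the median of miR-148a-3p, which were CD20 replicates 1 and 2. Between canonical miR-148a-3p and miR-152 r was -0.57 (rho -0.41), and -0.30 without these 2 libraries. With all forms summed, miR-148a-3p and miR-148b-3p had r = 0.62, while miR-148a-3p and miR-152 had r = 0.33 (rho 0.46), which is the opposite sign. Without CD20 replicates 1 and 2 these summed values were 0.34 and 0.45. These values are descriptions, since the points share library depth and scaling. The GC content of the other annotated reads of a library had r = -0.58 with miR-148a-3p, and its part was not tested.

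The share of reads with C at the last position differed between libraries, in the family and in other miRNAs alike. In 28 libraries the T22C form amounted to between 11.7% and 26.7% of canonical miR-148a-3p reads and to between 12.4% and 27.2% of miR-148b-3p. In PD20 replicate 3 the values were 0.203% and 0.0923%, and in CD16 replicate 3 0.181% and 0.243%. The median over 10 other abundant canonical miRNAs that end in T was between 10.3% and 22.9% in the 28 libraries, and 0.143% and 0.136% in these 2. In total 489994 reads of miR-148a-3p and 151677 of miR-148b-3p ended this way and were not counted among the annotated sequences. PD20 replicate 3 is the same library that held the highest level of miR-148b-3p 3'-1, and the part of this property in that level was not tested. With both libraries left out, miR-148b-3p 3'-1 had a log2FC of 1.54 for PD20 vs PD12, an F-test adjusted p of 0.122, and 0 members were called.

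**Figure D5:**
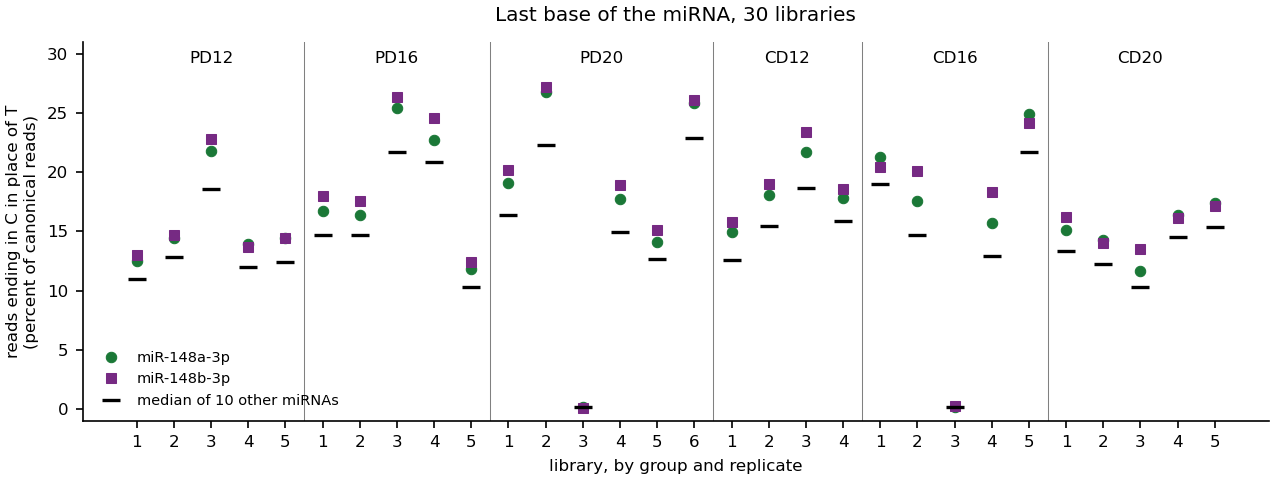
Reads ending in C in place of T, as percent of canonical reads, for miR-148a-3p (green circles), miR-148b-3p (purple squares) and the median of 10 other miRNAs that end in T (black bars), in each of the 30 libraries by group and replicate. PD20 replicate 3 and CD16 replicate 3 lie below 1%, and the other 28 libraries between 10.3% and 27.2%.

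The annotated sequences whose levels were most like those of the canonical members were named by Pearson r of log2(CPM + 1) over the 30 libraries, among 532 sequences outside the family whose mean reached 10 CPM. For miR-148a-3p they were miR-532-5p (r = 0.84), a mir-106b sequence (r = 0.83) and a longer form of miR-532-5p (r = 0.81). For miR-148b-3p they were a mir-183 sequence (r = 0.87), the same longer form of miR-532-5p (r = 0.86) and miR-30d (r = 0.85). For miR-152 they were sequences of mir-195 (r = 0.75) and mir-20a (r = 0.74) and miR-126-3p (r = 0.74), which is a miRNA of endothelial cells. The 2 miR-148 sisters were less alike than these, as miR-148b-3p came at place 25 in the list of miR-148a-3p, and miR-148a-3p at place 48 in that of miR-148b-3p. Likeness was taken on canonical sequences only. For miR-152 these leave out most reads, as 74.3% of the reads with its core lie outside the list. Likeness with all forms summed was not computed.

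Other miRNAs known to target DNA methyltransferases were read from a list of 6 roots, of which mir-29a, mir-126, mir-185 and mir-342 were found with 26 sequences, while mir-29b and mir-29c are not analysed here. Of these 26, 15 were the mir-126 sequences that also form the endothelial list above, so the 2 lists are not independent. None of the 26 was called in any of the 12 comparisons by the F-test. At an unadjusted p under 0.05 there were 10 of 26 for PD20 vs PD12 and 5 of 26 for PD20 vs CD20, against 18.7% and 28.5% of all sequences. The mir-126 sequences made up 3 of the 10 and 4 of the 5. The median log2FC of all 26 was -0.02 and -0.48, beside 0.07 and -0.44 for the mir-126 sequences and -0.01 and -0.03 for all sequences. miR-126-5p, which comes from an endothelial gene, had a log2FC of -1.52 for PD20 vs CD20 (SE 0.50, adjusted p = 0.0665). The other arm, miR-126-3p, had -0.64 (SE 0.34, adjusted p = 0.222) and miR-185 -0.02 (SE 0.29, adjusted p = 0.960). For PD20 vs PD12 the log2FC was -0.52 (SE 0.36) for miR-126-5p, 0.44 (SE 0.29) for miR-126-3p and -0.48 (SE 0.23) for miR-185. The F-test adjusted p was 0.539, 0.580 and 0.248. The most abundant form of mir-29a, whose family targets the de novo methyltransferases, had a log2FC of 1.14 (SE 0.34, adjusted p = 0.143) for PD20 vs PD12, 1.21 (SE 0.45, adjusted p = 0.121) for CD20 vs CD12 and -0.68 (SE 0.36, adjusted p = 0.215) for PD20 vs CD20. For miR-342 the values were -1.44 (SE 0.53, adjusted p = 0.112), -0.76 (SE 0.57, adjusted p = 0.530) and -0.58 (SE 0.46, adjusted p = 0.411).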

How the data were processed

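Small RNA libraries of endometrial RNA were sequenced in 2 runs that were joined for each library. The authors removed adapters, low quality reads and very short reads, collapsed identical reads and deposited raw counts of each distinct sequence. Names came from the study's list of 873 annotated sequences (genome Sscrofa10.2 and miRBase), joined by exact match. Members and lists were chosen with earlier results of these data known.

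Counts of annotated sequences were scaled by TMM in edgeR 4.0.16 (R 4.3.3). Days were fitted within pregnancy and within the cycle, each pregnant vs cyclic comparison alone and interactions over all groups, with the quasi-likelihood F-test, a prior count of 0.125 and Benjamini-Hochberg adjustment. The SE is the absolute log2FC divided by the square root of F for that comparison. The fits and the placing of isomiR ends on the canonical sequence were tested on simulated data. Alternatives were DESeq2 1.42.0, the likelihood ratio test, other scaling, filters and sums, a replicate block, and libraries left out. Named sequences were all 26 members, the 3 sequences most like each canonical 3p member and the canonical sequences of the methyltransferase list. Samples are separate animals, whose replicate numbers were not used to pair them in the main fits. Reads carry no molecular identifiers, so PCR copies of a molecule cannot be told from separate molecules. The counting error of the reads is therefore a lower limit of the error.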

Additional observations from a re-analysis of the deposited data

Results flagged for a closer look

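Single libraries lay far from the rest of their group, by Dixon's criterion, for 9 of 186 group and measure combinations tested, where chance gives about 1 in 20. Of these, 2 concern miR-148b-3p 5'-2 3'-1 and miR-148b-5p. miR-148b-3p 5'-2 3'-1 was at 41.55 CPM in PD20 replicate 3, against 6.28 to 15.97 CPM in the other libraries of the group, and this library is also one of the pair with few reads ending in C. miR-148b-5p was at 7.174 CPM in CD12 replicate 3, against 2.192 to 2.885 CPM. CD12 replicate 1 stood out for 2 forms of miR-152: the 3'-1 form was at 31.23 CPM, against 16.26 to 18.45 CPM, and the 5'-2 form at 18.08 CPM, against 4.1 to 4.534 CPM, with a share of reads that start at base 3 of 1.787% against 0.7368% to 0.8556%. The remaining 4 concern other miR-148 forms. miR-148a-3p 3'-2 was at 36.36 CPM in CD20 replicate 1, against 82.97 to 92.85 CPM. miR-148a-3p 5'-1 was at 6.81 CPM in PD20 replicate 6, against 1.744 to 3.356 CPM. Its log2FC for PD20 vs PD16, -0.93 with all libraries, was -1.22 without that library and -0.55 without PD16 replicate 2. miR-148b-3p 5'-2 was at 67.12 CPM in PD16 replicate 1, against 334.3 to 437.5 CPM. The share of miR-148a-3p reads that start at base 3 was 2.24% in PD20 replicate 4, against 1.419% to 1.539%.

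Reads outside the annotated list were a signal in data that the comparisons of annotated sequences do not use. Such reads, which begin like a member, made up 18.3% of miR-148a-3p reads (5.93% to 24.52% over 30 libraries), 29.41% of miR-148b-3p reads (21.3% to 37.84%) and 73.87% of miR-152 reads (45.53% to 83.56%).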

How the results depend on the processing

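The count of called members was the result that moved with the test. The likelihood ratio test and DESeq2 each called 1 member for PD16 vs PD12 (miR-148b-3p 5'-2 3'-1), 2 for PD20 vs PD12 (this form and miR-148b-3p 3'-1) and 2 for PD20 vs CD20 (miR-148b-3p 3'-1 and miR-148b-5p). For PD16 and PD20 vs PD12 these calls used a joint test of both days. With day 16 tested alone, the F-test called 0 members for PD16 vs PD12 (0% of all sequences). All calls of miR-148b-3p 5'-2 3'-1 and miR-148b-5p are descriptions, since each met the read minimum only in the higher of the groups compared. For PD20 vs PD12, 1 was called among sequences whose mean reached 10 CPM (2.04% of all sequences called) and 2 when that day was tested alone (2.86%). For PD20 vs CD20, 1 was called in 1 fit of all libraries (11.2%). With 1 library left out, 0 to 1 members were called for PD20 vs PD12 (1 without PD16 replicate 1 or PD20 replicate 1, 4 or 6, with 2.06%, 0.802%, 1.15% and 1.15% of all sequences) and 0 to 2 for PD20 vs CD20 (2 without CD20 replicate 4, with 11.9%). Without both PD20 replicate 3 and CD16 replicate 3, a choice made after seeing the data, 0 were called in each (0.229% and 0.687%). The causes were not tested.

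Some signs reversed, of main log2FC values between -0.36 (seed CAGTGCA, CD20 vs CD12) and 0.16 (miR-148a-3p, PD20 vs PD12). The log2FC of miR-152 for PD20 vs PD12 was -0.0071 by DESeq2 and with RLE scaling, -0.0666 with the filter at 10 CPM, -0.1027 with all deposited sequences, -0.0001 in 1 fit and -0.17 without TMM on all deposited reads. Between groups the last scaling moved the median of all sequences by up to 0.39 on the log2 scale (CD20 vs CD12). In the interaction of day 20 vs 12 it moved this median by -0.52. The same scaling gave -0.026 for miR-148a-3p in PD20 vs PD12, 0.0416 in CD16 vs CD12 and 0.1318 in PD12 vs CD12. For miR-148a-3p 3'+2 it gave 0.0563 in CD16 vs CD12. For seed CAGTGCA it gave -0.236 in PD20 vs PD16, 0.0977 in CD20 vs CD12 and 0.3052 in PD12 vs CD12. Leaving out 1 library (for the highest value of miR-152, also both libraries named above) gave -0.0749 to 0.1342 for miR-152 in PD20 vs PD12, for miR-148a-3p -0.2518 to 0.0859 in PD20 vs PD16, -0.4119 to 0.1223 in CD16 vs CD12 and -0.4414 to 0.0074 in PD12 vs CD12, -0.3718 to 0.3317 for miR-148a-3p 3'+2 in CD16 vs CD12, and for seed CAGTGCA -0.1067 to 0.1668 in PD20 vs PD16, -0.1644 to 0.2912 in CD16 vs CD12 and -0.2497 to 0.2178 in PD12 vs CD12.

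The family took 4.10% of all deposited reads in PD12. By core it took 6.68% in PD12, 8.76% in PD16 and 7.02% in CD16, relative to annotated reads. The share of miR-152 reads that start at base 3 was, by core, 1.55% in PD12, 1.41% in CD16 and 1.41% in CD20.

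No pairing by replicate number was seen, as 17 of 70 same-numbered pairs correlated above 0.1 and in 0 of 15 group pairs every pair did. This rule cannot exclude a shared pool or batch. The paper describes multiplex pools of libraries, which were not a factor in the fits. With the replicate block 0 members were called, where at most 0.573% of all sequences were called in any comparison (PD20 vs CD20), and miR-148b-3p 3'-1 had a log2FC of 1.98 for PD20 vs PD12 (edgeR F-test adjusted p = 0.104). Forms with few reads, such as miR-148b-5p, are limited by depth.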
